A study of Mus musculus with 4 samples.

Results

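The genes described here are 8 genes of epithelial defence in mouse small intestinal adenomas: the Reg lectin genes Reg1, Reg3a, Reg3b, Reg3g and Reg4, together with Dmbt1, Lypd8 and Pigr. They were taken by symbol from the gene tables, and all 8 were present among the 27514 genes that the tables of the 4 libraries share. The rule itself used no measured value, but the members were chosen with earlier results of these data known. Tumors of the small intestine, 3 to 10 per library, were dissociated and profiled without sorting by 10x Chromium 3′ single-cell RNA sequencing, in which each captured transcript is counted by its unique molecular identifier (UMI). Libraries labelled ApcMin came from ApcMin/+;Lef1 +/+ mice. Libraries labelled VApcMinL came from ApcMin/+;Lef1 fl/fl; Villin-Cre mice, in which Cre driven by the Villin promoter deletes Lef1, a nuclear effector of Wnt signaling, constitutively in the gut epithelium. All mice were C57BL/6, labelled male, 11 weeks old and heterozygous for the ApcMin allele, so that every library carries this allele and none is from tumor-free gut. There were 2 libraries per group, and the number of mice behind each is not given in the sources used here. Replicate 1 of both groups was made with kit version 2 and replicate 2 with kit version 3. Where 4 values follow each other, they are those of ApcMin 1, VApcMinL 1, ApcMin 2 and VApcMinL 2, in this order.

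Reg proteins are small secreted C-type lectins. Reg3g and Reg3b bind bacteria at the surface of the gut epithelium and keep them off it, and their transcription in enterocytes rises with microbial signals that reach the epithelium through MyD88 and through interleukin-22 and STAT3. Reg1 and Reg4 were first described as regeneration and tumor-associated members of the same family. Dmbt1 is a large mucin-like scavenger receptor protein that aggregates bacteria. Lypd8 is anchored to the apical membrane and binds bacterial flagella. Pigr carries dimeric IgA, joined by the J chain, across epithelial cells into the lumen.

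In the GRCm38 annotation, 4 of the members lie in a cluster of 6 Reg genes that spans 98216 bases of chromosome 6. From left to right these are Reg3b at chr6:78370657-78373466, Reg3d, Reg3a at chr6:78380709-78383827, Reg2, Reg1 at chr6:78422711-78428667 and Reg3g at chr6:78466269-78468872. Of these members, Reg3g is read from the minus strand and Reg3b, Reg3a and Reg1 from the plus strand. The other members lie elsewhere, all on the plus strand: Reg4 at chr3:98222156-98236748, Dmbt1 at chr7:131032053-131121630, Lypd8 at chr11:58379043-58390728 and Pigr at chr1:130826684-130852249. Reg3b and Reg3g transcripts share 5 sequences of 31 bases, with 35 identical bases at most, so few reads could be counted to the wrong one of the pair. Of the 31-base sequences of Reg1, 5.84% also occur in transcripts of other genes, with the longest identical stretch, 71 bases, in Gm15912. For Pigr the share was 2.80%, with the longest stretch, 113 bases, in Fam124a. The other members shared none with another gene.

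The promoters of the 4 members in the cluster are shown because these genes differ in how their levels run across the cell classes. Each line gives 150 bases around the RefSeq transcription start (GRCm38.p6), from 120 bases before it to the 30th base of the transcript, 5′ to 3′ on the gene's strand. Capitals mark bases in runs of 12 or more that a gene's longer window of 300 bases shares with that of another of the 4 genes. The last runs of Reg3b and Reg3g continue past the bases shown.
Reg3b, chr6:78370765-78370914, plus strand: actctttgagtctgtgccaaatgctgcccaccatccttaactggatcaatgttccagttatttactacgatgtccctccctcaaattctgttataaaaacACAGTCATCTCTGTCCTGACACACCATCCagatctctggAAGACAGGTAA
Reg3g, chr6:78468845-78468994, minus strand: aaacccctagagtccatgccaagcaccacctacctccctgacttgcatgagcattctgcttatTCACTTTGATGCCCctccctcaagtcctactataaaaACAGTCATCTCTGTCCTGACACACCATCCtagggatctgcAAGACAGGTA
Reg3a, chr6:78380589-78380738, plus strand: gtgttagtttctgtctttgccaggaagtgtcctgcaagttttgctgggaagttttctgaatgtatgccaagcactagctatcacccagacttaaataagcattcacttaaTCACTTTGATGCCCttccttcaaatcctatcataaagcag
Reg1, chr6:78425863-78426012, plus strand: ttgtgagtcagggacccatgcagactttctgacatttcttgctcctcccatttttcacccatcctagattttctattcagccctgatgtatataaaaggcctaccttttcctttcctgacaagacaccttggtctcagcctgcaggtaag

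Over 300-base windows (250 before and 50 after the start), Reg3b and Reg3g were 68.6% identical, with a shared run of 29 bases that spans the start of both genes. Reg3g and Reg3a were 52.4% identical, Reg3b and Reg3a 47.5%, and Reg3b and Reg1 49.4%. The letters TATAAA, searched on both strands, occurred 29 bases before the start in Reg3b, 27 bases before it in Reg3g and 30 bases before it in Reg1, and they occurred in none of the windows of Reg3a, Reg4, Lypd8 and Pigr. In all, 3 of the 7 members with a window held them, against 13.6% of 32851 mouse promoter windows. The letters TTCNNNGAA, the spacing that STAT factors bind, occurred in the windows of Reg3b and Pigr and in 8.30% of all windows. A match describes the sequence and is not evidence of binding.

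Across the series, 11297 barcodes held at least 2000 UMIs with at most 20% mitochondrial UMIs, 2071 to 4217 per library, at median depths of 10879.5 to 26205 UMIs. The mitochondrial limit removed 61.6% of the deeper barcodes of ApcMin 2 and 20.4% to 26.5% of those of the other libraries. No pair of libraries shared more than 9 barcodes. Cells were assigned to classes by the summed UMIs of marker genes, none of them a member: 3482 adenoma-type, 644 crypt-type, 1865 enterocyte-type, 980 villus-tip-type and 647 secretory-type cells. Of these secretory-type cells, 465 were goblet-type, 37 Paneth-type, 71 tuft-type and 74 enteroendocrine-type. The labels did not hold in every respect. Lef1 in adenoma-type cells was 9.79, 30.0, 37.1 and 22.8 CPM (UMIs of the gene per 1000000 UMIs of the class in that library), so it was lower in VApcMinL than in ApcMin with kit 3 but higher with kit 2, although 3′ counting can still detect a transcript that lacks deleted exons. Xist, expressed from the inactive X chromosome of females, was 0, 1202, 0.0744 and 329 CPM in adenoma-type cells, so both libraries labelled VApcMinL held it. The stem cell marker Olfm4 was at 6.43, 1.47, 339 and 373 CPM in crypt-type cells, and thus almost absent from the kit 2 pair. Groups are therefore named as labelled throughout.

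The members followed 3 patterns across the classes. Reg1, Reg3a, Reg3b, Reg3g, Lypd8 and Pigr were highest in enterocyte-type cells, Dmbt1 was highest in crypt-type cells, and Reg4 was highest in enteroendocrine-type and goblet-type cells. Apart from Reg4, which was low in every class of absorptive or crypt origin, each had its lowest or close to its lowest epithelial level in adenoma-type cells. As mean ± SD over the 4 libraries, in CPM, Reg1 ran from 119.9 ± 21.9 in adenoma-type through 773 ± 228 in crypt-type to 6411 ± 1341 in enterocyte-type cells. The same order held for Reg3b, at 189.7 ± 43.8, 2023 ± 1114 and 5826 ± 1991. Levels of villus-tip-type cells lay between those of crypt-type and enterocyte-type cells for Reg1, Reg3a, Reg3b and Pigr. For Reg3g they lay below both, at 1012 ± 68.7 against 1421 ± 593 in crypt-type cells, with ranges of the libraries that overlap. Lypd8 did not differ beyond the library spread between crypt-type cells, at 1978 ± 289, and villus-tip-type cells, at 2154 ± 662. T and NK cells, which do not make these proteins, served as a reference for free RNA. They had at least 20 T and NK marker UMIs and under 15 epithelial marker UMIs per 10000, so they were selected for little epithelial RNA. Barcodes of at most 100 UMIs held 10.2 to 11.4 times their level of Lypd8 and 6.89 to 17.8 times their level of Dmbt1 within a library. T and NK cells were also shallower, at median depths of 2516 to 3411 UMIs against 17792.5 to 33140 in adenoma-type cells. Free RNA adds to every barcode and can be a larger part of a shallow cell. A level near theirs is thus not shown to be background.

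**Figure D1:**
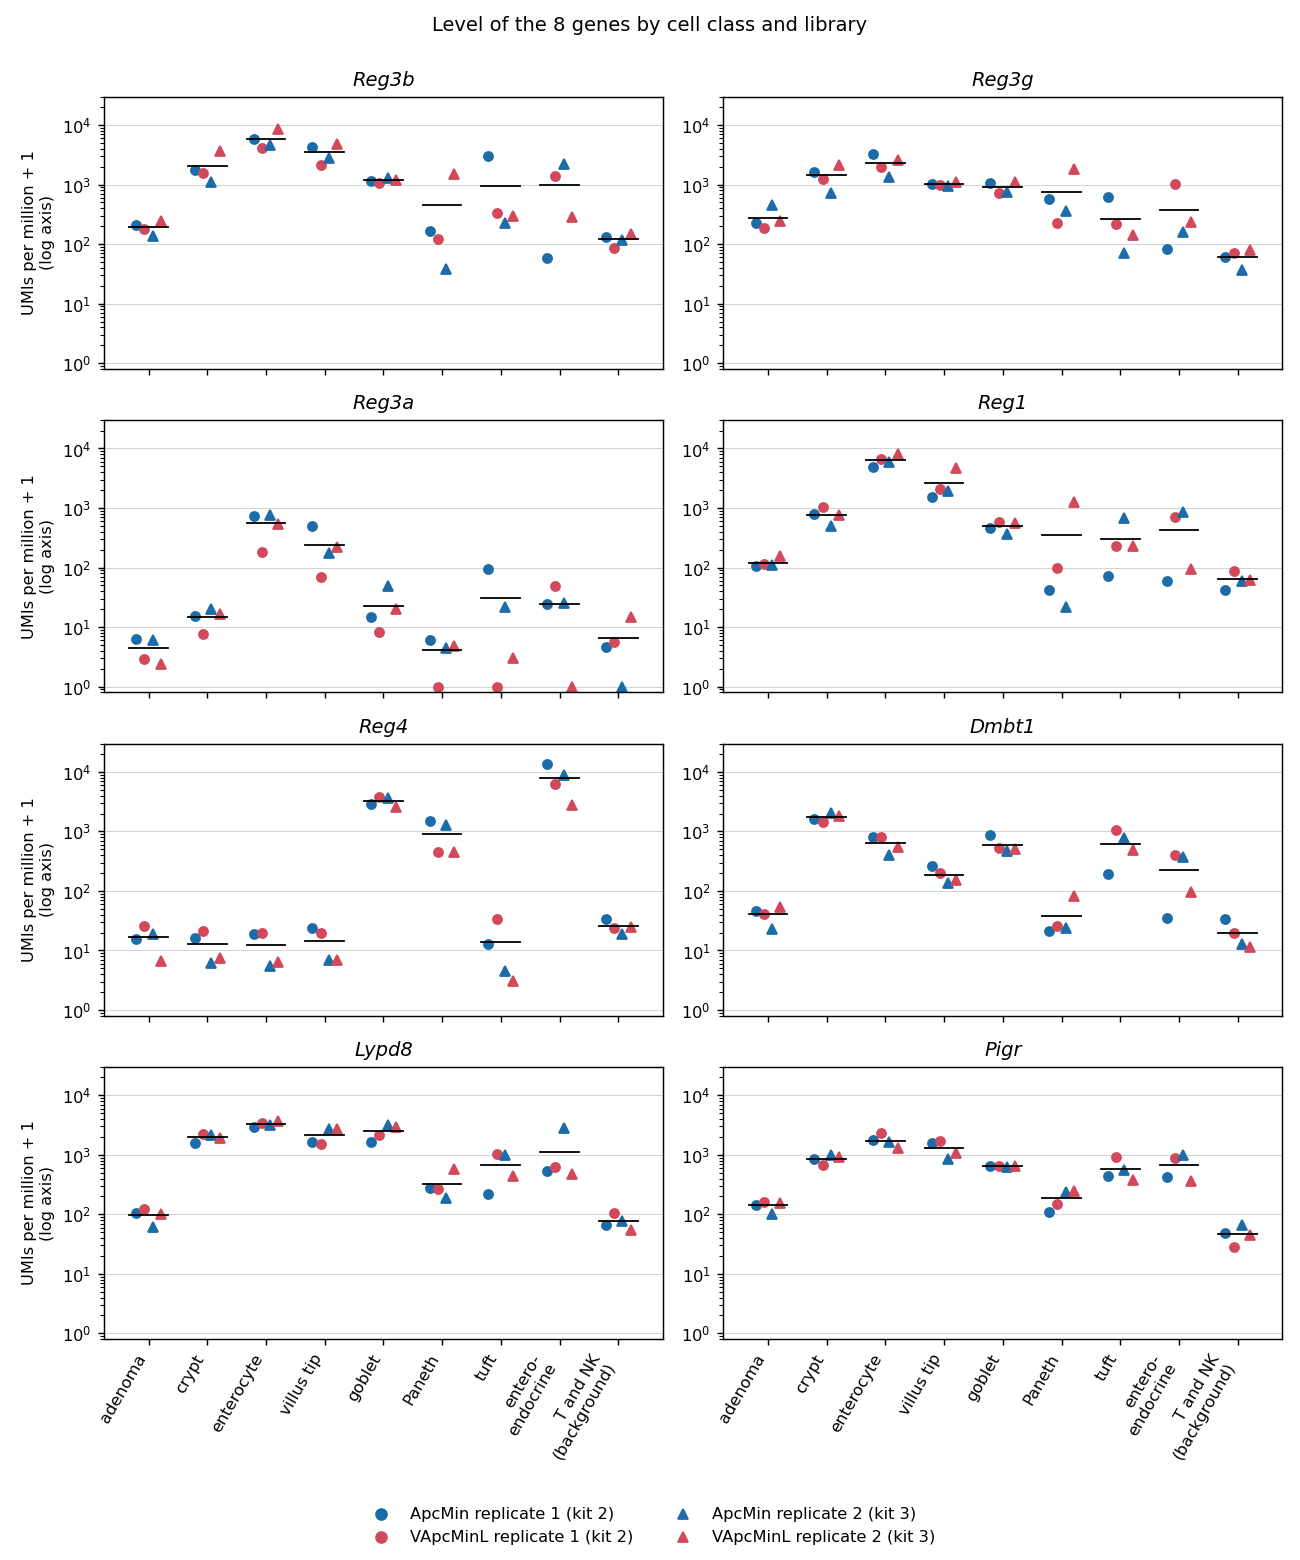
CPM plus 1 (log axis) of each of the 8 genes in 9 cell classes, with 1 point per library (blue ApcMin, red VApcMinL as labelled, circles kit 2, triangles kit 3) and a line at their mean. Reg1, Reg3a and Reg3b peak in enterocyte-type cells, Dmbt1 in crypt-type cells and Reg4 in enteroendocrine-type and goblet-type cells. For Lypd8 and Reg3b, adenoma-type cells sit close to the T and NK cells, which are labelled background but are shallower.

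The first comparison asked how the defence genes differ between tumor cells and the crypt-type cells of the same dissociated tissue. Of the 8 members, 7 were lower in adenoma-type cells, against 21.8% of 11843 genes tested that were called lower (edgeR quasi-likelihood test, library as a block, adjusted p under 0.05). The median difference over the members was -2.77 on the log2 scale, against 0.05 over all genes. Only Reg4 was not called, at 0.26 (edgeR adjusted p = 0.478).

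Dmbt1 and Lypd8 showed the largest differences. Dmbt1 was 1628, 1463, 2069 and 1816 CPM in crypt-type cells. In adenoma-type cells it was 45.8, 39.3, 22.2 and 52.1. The lowest crypt-type value was thus far above the highest adenoma-type value, and within a library the ratio was 34.9 to 93.3. The fitted log2 difference was -5.62 ± 0.27 (SE; edgeR adjusted p = 8.17e-06). Lypd8, the flagella-binding protein, was 1582, 2234, 2145 and 1949 CPM in crypt-type cells and 104, 121, 59.6 and 102 in adenoma-type cells, with no overlap between the classes. Its log2 difference was -4.52 ± 0.21 (SE; edgeR adjusted p = 7.41e-06).

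The bactericidal lectins differed less. Reg3b was 1765, 1578, 1106 and 3642 CPM in crypt-type cells and 206, 175, 138 and 240.3 in adenoma-type cells, a log2 difference of -3.44 ± 0.15 (SE; edgeR adjusted p = 5.76e-06). VApcMinL 2 was the highest library in both classes. Reg3g was 1596, 1218, 734 and 2136 in crypt-type cells and 226, 183, 456 and 239 in adenoma-type cells, a log2 difference of -2.52 ± 0.37 (SE; edgeR adjusted p = 0.000995). The value of ApcMin 2 in adenoma-type cells rested on 1 cell that held 68.3% of the Reg3g UMIs of the class. With the UMIs of the top cell left out of each library, the levels were 212, 173, 145 and 224, and the log2 difference without ApcMin 2 was -3.03. In adenoma-type cells of ApcMin 2 the top cell of each gene also held 34.1% of the Reg1, 22.5% of the Reg4, 21.8% of the Reg3b and 20.1% of the Dmbt1 UMIs. Reg3a was low in both classes, at 14.3, 6.78, 18.8 and 15.2 in crypt-type and 5.39, 1.91, 4.99 and 1.41 in adenoma-type cells, a log2 difference of -2.33 ± 0.33 (SE; edgeR adjusted p = 0.000834).

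Reg1 and Pigr were lower by similar amounts. Reg1 was 786, 1055, 499 and 751 CPM in crypt-type and 106, 115, 107 and 152 in adenoma-type cells, a log2 difference of -2.79 ± 0.17 (SE; edgeR adjusted p = 2.13e-05). Pigr was 849.7, 686, 981 and 902 in crypt-type and 145, 159.8, 101 and 156 in adenoma-type cells, a log2 difference of -2.75 ± 0.18 (SE; edgeR adjusted p = 2.44e-05). For both genes every crypt-type value exceeded every adenoma-type value.

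Several adenoma-type levels were close to those of T and NK cells. As these are shallower, the ratios do not show how much of a level is free RNA. In T and NK cells Lypd8 was 66.3, 106, 76.1 and 54.5 CPM, so the ratio of adenoma-type over T and NK cells was 0.783 to 1.87 within a library. The same ratio was 1.17 to 2.05 for Reg3b, 1.31 to 2.61 for Reg1, 1.38 to 5.10 for Dmbt1 and 1.57 to 5.76 for Pigr. Reg3a had 1, 2, 0 and 4 UMIs in T and NK cells. Its ratios over them in ApcMin 1, VApcMinL 1 and VApcMinL 2 were 1.47, 0.412 and 0.103 in adenoma-type cells. In crypt-type cells they were 3.87, 1.47 and 1.12. The crypt-type level was thus at most 1.5 times the T and NK level in 2 of the 3 and the adenoma-type level in all 3. In VApcMinL 1 and VApcMinL 2 the adenoma-type level was well below the T and NK level, which rests on these few UMIs. The count of 0 in ApcMin 2 allows up to 17.6 CPM. Reg4 was near or under the T and NK level in adenoma-type cells, at a ratio of 0.235 to 1.06. Reg3g was 58.9, 69.3, 35.1 and 78.3 in T and NK cells. Its adenoma-type level stood further above theirs, at a ratio of 2.63 to 13.0, where the upper end is the library with the single Reg3g-rich cell.

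Shares of cells with a UMI were compared at equal depth, which does not make the part of free RNA equal between deep and shallow cells. With every cell thinned to 2000 UMIs, 77.1, 85.4, 87.4 and 70.0% of crypt-type cells and 8.30, 5.27, 2.92 and 5.31% of adenoma-type cells were positive for Dmbt1. Without thinning the adenoma-type shares were 49.6, 42.4, 32.7 and 34.5%, at a median depth of 17792.5 to 33140 UMIs per cell. T and NK cells, at 2516 to 3411 UMIs, were positive in 6.74, 1.39, 4.55 and 2.20% after thinning. For Reg3b the thinned shares were 24.3, 19.5, 12.5 and 16.5% in adenoma-type and 25.8, 13.2, 22.7 and 28.6% in T and NK cells, against 56.8, 63.9, 41.1 and 58.2% in crypt-type cells. The adenoma-type share of Reg3b was thus below that of T and NK cells in 3 of 4 libraries, whereas its level in CPM was above theirs in 4 of 4, so no order of these classes is read from the share. For Pigr, 22.6, 19.1, 16.03 and 22.9% of adenoma-type cells and 10.1, 6.25, 18.2 and 8.79% of T and NK cells were positive after thinning, higher in adenoma-type cells in 3 of 4 libraries. In ApcMin 2 the exact binomial 95% intervals of these last shares overlapped. Intervals cover counting error only.

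The classes being compared differ in other ways. Crypt markers were higher in adenoma-type cells, with medians per library of 8.45 to 10.1 UMIs per 10000 against 4.52 to 6.26 in crypt-type cells. The crypt-type class is thus set apart by its few adenoma markers and not by more crypt markers. Enterocyte markers had medians of 23.5, 34.8, 30.96 and 18.9 UMIs per 10000 in crypt-type cells and 7.37, 12.3, 6.93 and 3.55 in adenoma-type cells, both under the gate of 100. Proliferation markers had medians of 11.4, 8.39, 11.8 and 9.64 in crypt-type and 4.51, 2.92, 3.44 and 5.65 in adenoma-type cells. Stomach-type markers were higher in adenoma-type cells, at 5.47, 12.6, 7.13 and 5.49 against 1.23, 1.88, 0.296 and 0.626. Their part in the difference was not tested.

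**Figure D2:**
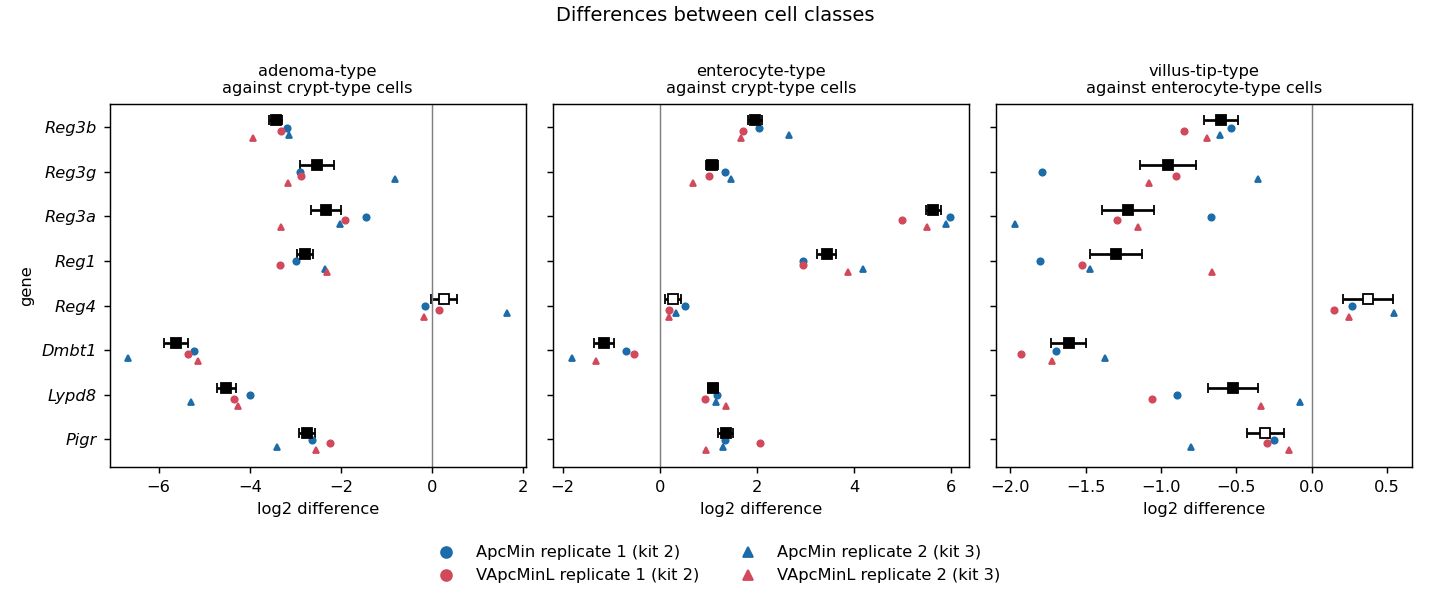
Log2 differences between cell classes for each gene (black squares with SE from edgeR, filled where the adjusted p was under 0.05) and the difference within each library (small points, colored and shaped by library). Dmbt1 lies furthest to the left in adenoma-type against crypt-type cells, at -5.62, Reg3a furthest to the right in enterocyte-type against crypt-type cells, at 5.63, and Pigr and Reg4 are the open squares of villus-tip-type against enterocyte-type cells. The 3 panels have different ranges on the x axis.

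The same difference could be followed as a gradient among epithelial cells of low enterocyte marker content, leaving out secretory-type cells and ordering the rest by their adenoma marker UMIs per 10000. From under 0.5 to 20 and over, Dmbt1 went from 1740.4, 1635, 1942 and 1841 to 34.5, 25.1, 22.8 and 24.1 CPM. In the intermediate band of 0.5 to 2, Dmbt1 was 473, 1123, 668 and 400.0, and in the band of 2 to 5 it was 71.4, 85.8, 39.7 and 78.1. As a ratio, the step between these last bands, at the lower limit of the adenoma-type gate, exceeded the others in 4 of 4 libraries. Reg3b went from 1905, 1597, 2163 and 4308 to 94.8, 59.0, 119 and 65.2 across the same bands. Reg1 went from 802, 1325, 595 and 935 to 60.3, 72.5, 58.2 and 36.2 and was lower at every step in 4 of 4 libraries. Lypd8, Pigr and Reg3g were lower at every step in 3 of 4 libraries, and Dmbt1 and Reg3b in 2 of 4. The top band held 20, 241, 121 and 81 cells. The bands are cut by the marker sum and describe the cells, with no test.

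**Figure D3:**
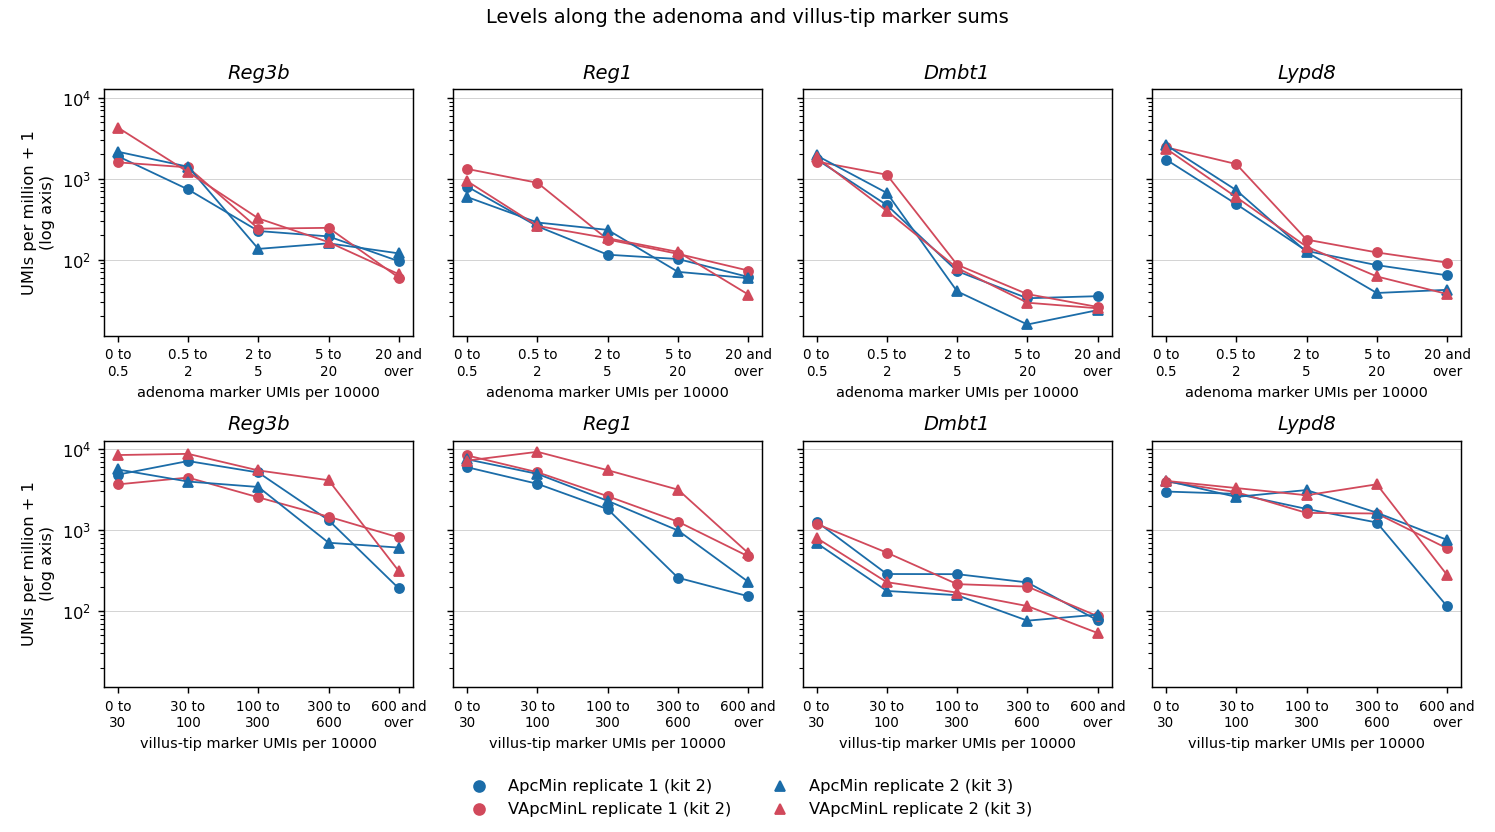
CPM plus 1 (log axis) of Reg3b, Reg1, Dmbt1 and Lypd8 in bands of the adenoma marker sum (top row, cells of low enterocyte marker content) and of the villus-tip marker sum (bottom row, enterocyte-type and villus-tip-type cells), with 1 line per library. Dmbt1 drops between the first and the third adenoma band in every library, while along the villus-tip bands Lypd8 stays above 1000 until the last band.

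The second comparison followed differentiation, from crypt-type to enterocyte-type cells. Here 6 members were higher in enterocyte-type cells, against 35.5% of 10378 genes called higher, and 1, Dmbt1, was lower, against 35.5% called lower. The median difference over the members was 1.23 on the log2 scale, against -0.00289 over all genes.

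Reg3a had the steepest difference. It was 744, 180.2, 754 and 528 CPM in enterocyte-type cells, 26.6 to 52.2 times its crypt-type level within a library, with a log2 difference of 5.63 ± 0.15 (SE; edgeR adjusted p = 1.69e-09). VApcMinL 1 was the lowest library, and it stood apart from the other three. Reg1 was 4932, 6531, 6025 and 8155 and thus 6.19 to 12.1 times as high as in crypt-type cells, with a log2 difference of 3.43 ± 0.20 (SE; edgeR adjusted p = 1.75e-07). Reg3b was 5910.1, 4126, 4673 and 8594, with a log2 difference of 1.96 ± 0.15 (SE; edgeR adjusted p = 1.19e-06). All enterocyte-type values of these 3 genes exceeded all of their crypt-type values.

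The other members changed less. Reg3g was 3292, 1966, 1354 and 2548 CPM in enterocyte-type cells, with a log2 difference of 1.07 ± 0.13 (SE; edgeR adjusted p = 2.97e-05). Its ranges in the classes overlapped, although enterocyte-type cells were higher within each library, by 1.19 to 2.06 times. Lypd8 was 2905, 3385, 3213 and 3719.9, a log2 difference of 1.10 ± 0.10 (SE; edgeR adjusted p = 4.12e-06). Pigr was 1761, 2286, 1616 and 1290.4, a log2 difference of 1.35 ± 0.16 (SE; edgeR adjusted p = 2.99e-05). Dmbt1 went the other way, to 812, 807, 394 and 541, a log2 difference of -1.15 ± 0.20 (SE; edgeR adjusted p = 0.000404), with every enterocyte-type value below every crypt-type value. Reg4 was 18.0, 18.4, 4.43 and 5.40 in enterocyte-type cells and did not pass (edgeR adjusted p = 0.173).

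The ratio of Reg3b to Reg3g UMIs also moved with the class. It was 1.11, 1.30, 1.51 and 1.70 in crypt-type cells and 1.80, 2.099, 3.45 and 3.37 in enterocyte-type cells, higher in enterocyte-type cells in 4 of 4 libraries. In barcodes of at most 100 UMIs, which hold free RNA, it was 1.75, 1.98, 2.59 and 2.41. Adenoma-type cells had ratios of 0.909, 0.960, 0.301 and 1.00, each below the free RNA of the same library, and the third of them carries the single Reg3g-rich cell.

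The third comparison asked what happens at the villus tip, where enterocytes end their life. Of the members, 6 were lower in villus-tip-type than in other enterocyte-type cells, against 23.7% of 9651 genes called lower. The median over the members was -0.78, against -0.02 over all genes. Dmbt1 was 266, 196, 137 and 150.5 CPM in villus-tip-type cells, a log2 difference of -1.61 ± 0.11 (SE; edgeR adjusted p = 4.84e-06). Reg1 was 1500.1, 2106, 1958 and 4747, a log2 difference of -1.30 ± 0.17 (SE; edgeR adjusted p = 0.000161). Dmbt1 and Reg1 values of the 2 classes did not overlap. Some villus-tip-type levels rested in part on 1 cell. In ApcMin 1 the top cell of each gene held 32.6% of the Reg1 and 29.8% of the Dmbt1 UMIs. In VApcMinL 2 the top cell held 29.1% of the Dmbt1 UMIs. With the UMIs of these cells left out, Reg1 was 1011 CPM in ApcMin 1, and Dmbt1 was 187 in ApcMin 1 and 107 in VApcMinL 2.

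Reg3a was 497, 67.9, 173 and 218 CPM in villus-tip-type cells, a log2 difference of -1.22 ± 0.17 (SE; edgeR adjusted p = 0.000244). Reg3g was 1014, 975, 952 and 1108, a log2 difference of -0.96 ± 0.18 (SE; edgeR adjusted p = 0.00169). For Reg3b the difference was -0.60 ± 0.11 (SE; edgeR adjusted p = 0.00139), from levels of 4342, 2127, 2765 and 4880.0. These 3 lectins were lower in villus-tip-type cells in 4 of 4 libraries. Lypd8, at 1660.4, 1507, 2740.1 and 2709, passed narrowly with -0.52 ± 0.17 (SE; edgeR adjusted p = 0.0234). Pigr, at 1576, 1725, 835 and 1072, did not pass at -0.31 ± 0.12 (SE; edgeR adjusted p = 0.0611).

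Not all of these calls held. Lypd8 was not called without ApcMin 1 (-0.42, edgeR adjusted p = 0.133) or without VApcMinL 1 (-0.34, edgeR adjusted p = 0.114). Reg3a (-1.14, edgeR adjusted p = 0.138) and Reg3b (-0.59, edgeR adjusted p = 0.126) were not called with kit in place of library as the block, and Pigr was called lower under 5 of 10 alternatives, among them no filter on low counts (-0.37, edgeR adjusted p = 0.00334), doublets removed (-0.35, edgeR adjusted p = 0.0274) and stricter gates (-1.64, edgeR adjusted p = 1.90e-06). The villus-tip values depended on the mitochondrial limit. With at most 10% mitochondrial UMIs, 14, 87, 54 and 50 villus-tip-type cells remained, and ApcMin 1 was left out for having under 20. Pigr then differed by -1.75 on the log2 scale (edgeR adjusted p = 0.00162) and Lypd8 by -0.22 (edgeR adjusted p = 0.479). Within the bands of the villus-tip marker sum, Pigr stayed between 1043 and 2606 CPM up to a sum of 300 and was 118, 513, 171 and 381 from 300 to 600. Reg1 went from 5979, 8370.0, 7489.8 and 7235 under 30 to 151, 472, 228 and 519 at 600 and over, and was lower at every step in 3 of 4 libraries. Dmbt1 was 1271, 1193, 691 and 799 in the first band and 286, 525, 176 and 226 in the second. The top bands held 12 and 3 cells in ApcMin 1, so its values there are thin.

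The secretory lineage separated Reg4 from the other members. Against crypt-type cells, 2 members were higher in secretory-type cells, against 22.2% of 10563 genes called higher, and 3 were lower, against 22.2% called lower. Reg4 was 3003, 3565, 3288 and 2046 CPM in secretory-type cells against 15.4, 20.05, 5.15 and 6.34 in crypt-type cells. The log2 difference was 8.33 ± 0.29 (SE; edgeR adjusted p = 4.28e-09), the largest of any member in these comparisons. In T and NK cells Reg4 was 33.1, 23.1, 17.6 and 23.8. The values of crypt-type, adenoma-type, enterocyte-type and villus-tip-type cells were near or below this level. As T and NK cells are shallower, the part of free RNA in these values is not known and was not tested.

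Within the lineage, enteroendocrine-type cells had 13829, 6210.2, 8732 and 2797 CPM of Reg4 and goblet-type cells 2933, 3715, 3707 and 2565. Enteroendocrine-type cells were higher in 4 of 4 libraries, on 8 to 37 cells per library. Paneth-type cells had 1469, 442, 1294 and 452, on 2 to 21 cells. Tuft-type cells had 11.7, 33.4, 3.48 and 2.03, near or below the T and NK level. After thinning, 64.5, 43.5, 43.1 and 46.8% of goblet-type and 50, 50, 35.3 and 24.3% of enteroendocrine-type cells were positive, and the share was higher in enteroendocrine-type cells in 1 of 4 libraries.

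The other members were present in goblet-type cells too. Lypd8 was 1647, 2150.0, 3165 and 2959.7 CPM there and Pigr 649, 661, 629 and 654, the narrowest spread of any member in any class, with a coefficient of variation of 2.17%. Against crypt-type cells the secretory-type cells were lower in Dmbt1, by a log2 difference of -1.62 ± 0.17 (SE; edgeR adjusted p = 3.39e-05). They were also lower in Reg1, at -0.50 ± 0.14 (SE; edgeR adjusted p = 0.0134), and Reg3g, at -0.50 ± 0.15 (SE; edgeR adjusted p = 0.0176). Reg3a was higher at 0.62 ± 0.21 (SE; edgeR adjusted p = 0.0366), from levels of 16.1, 8.21, 36.4 and 13.8. Reg3b, at -0.58 ± 0.23 (SE; edgeR adjusted p = 0.0624), Pigr, at -0.32 ± 0.13 (SE; edgeR adjusted p = 0.0585), and Lypd8, at 0.20 ± 0.13 (SE; edgeR adjusted p = 0.234), did not pass. With kit in place of library as the block only Reg4 and Dmbt1 were called. The Reg3a call was also lost with DESeq2 (0.59, adjusted p = 0.129) and in edgeR without ApcMin 1 (adjusted p = 0.0777), VApcMinL 1 (adjusted p = 0.056) or ApcMin 2 (0.27, adjusted p = 0.352). Removing doublets (0.35, edgeR adjusted p = 0.153) or a mitochondrial limit of 10% (0.14, edgeR adjusted p = 0.551) lost it too. The calls of Reg1 and Reg3g were lost without ApcMin 1 (edgeR adjusted p = 0.0982 and 0.0676) or VApcMinL 1 (0.0723 and 0.0878), and that of Reg3g without VApcMinL 2 (0.126). With stricter gates Reg1 (0.060, edgeR adjusted p = 0.758) and Reg3g (-0.20, edgeR adjusted p = 0.270) were not called either. In turn, Reg3b was called with no filter on low counts (-0.64, edgeR adjusted p = 5.29e-05), without doublets and without ApcMin 2 (-0.87, edgeR adjusted p = 0.00485), and Pigr with no filter, with a mitochondrial limit of 10% and without VApcMinL 1 (-0.48, edgeR adjusted p = 0.0226). Lypd8 was called with stricter gates (0.74, edgeR adjusted p = 0.000713).

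The main question of the design was whether the members differed between the libraries labelled VApcMinL and ApcMin. No member passed in any of the 5 classes (edgeR, kit as a block). The share of all genes called was 0% of 12802 in adenoma-type cells, 0.00963% of 10384 in crypt-type, 0.00937% of 10668 in enterocyte-type, 0.0110% of 9107 in villus-tip-type and 0.0372% of 10760 in secretory-type cells. At an unadjusted p under 0.05 (edgeR) there were 1, 2, 1, 1 and 1 of the 8 members in these classes, in this order. Of all genes tested, 29, 304, 270, 177 and 280 were under this threshold in the same classes. The members were chosen with earlier results of these data known, so these counts are descriptions. DESeq2 called 0 members. Without the filter on low counts edgeR called Reg3b in crypt-type cells (0.74, adjusted p = 0.0178) and Reg3a in enterocyte-type (-1.32, adjusted p = 0.00303) and secretory-type cells (-1.45, adjusted p = 0.0226). With a mitochondrial limit of 10% it called Reg1 in villus-tip-type cells (2.52, adjusted p = 0.0427), where all 4 libraries were kept although ApcMin 1 had 14 such cells. A comparison of 2 with 2 libraries has few degrees of freedom, so these p-values do not show that the levels were alike.

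Reg3a had the lowest unadjusted p in 3 of the classes and a lower fitted value in the libraries labelled VApcMinL in all 5. In enterocyte-type cells, where it is well detected, its levels were 744, 180.2, 754 and 528 CPM. Both VApcMinL libraries were lower than the ApcMin libraries, and the log2 difference was -1.33 ± 0.39 (SE; unadjusted p = 0.0144, edgeR adjusted p = 1). It was -2.04 in the kit 2 pair and -0.62 in the kit 3 pair. In villus-tip-type cells it was -1.21 ± 0.75 (SE), but the kits were opposed, with -2.65 in the kit 2 pair and 0.25 in the kit 3 pair. In secretory-type cells, at few UMIs, it was -1.46 ± 0.30 (SE; unadjusted p = 0.00234, edgeR adjusted p = 0.738), and in adenoma-type cells -1.67 ± 0.42 (SE; edgeR adjusted p = 1).

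Reg1 was higher in the libraries labelled VApcMinL in both kits and in all 5 classes, but by only 0.026 on the log2 scale in adenoma-type cells of the kit 2 pair. Single cells held a large part of its UMIs in some sums. The top cell held 34.1% in adenoma-type cells of ApcMin 2 and 32.6% in villus-tip-type cells of ApcMin 1. In secretory-type cells it held 19.2, 19.7, 31.1 and 29.2%. In villus-tip-type cells its log2 difference was 0.92 ± 0.34 (SE; unadjusted p = 0.034, edgeR adjusted p = 1), with 0.70 in the kit 2 pair and 1.20 in the kit 3 pair. In crypt-type cells it was 0.48 ± 0.16 (SE; unadjusted p = 0.0169, edgeR adjusted p = 1). Neither passed the adjusted threshold.

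Reg3b and Reg3g had opposite directions in the kits in crypt-type and enterocyte-type cells. Reg3b in crypt-type cells differed by -0.19 in the kit 2 pair and 1.67 in the kit 3 pair, and Reg3g by -0.42 in the kit 2 pair and 1.497 in the kit 3 pair. In enterocyte-type cells the same pair differed by -0.52 in the kit 2 pair and 0.78 in the kit 3 pair for Reg3b and -0.74 in the kit 2 pair and 0.81 in the kit 3 pair for Reg3g. In the other classes, Reg3b differed in direction between the kits in adenoma-type and villus-tip-type but not in secretory-type cells, and Reg3g in secretory-type but not in adenoma-type (-0.40 in the kit 2 pair and -0.80 in the kit 3 pair) or villus-tip-type cells (0.15 in the kit 2 pair and 0.14 in the kit 3 pair). The fitted log2 differences of the remaining members over the 5 classes were -0.28 to 0.50 for Dmbt1, -0.04 to 0.49 for Lypd8, -0.25 to 0.37 for Pigr and -0.47 to 0.32 for Reg4, and the lowest unadjusted p among them was 0.15, for Lypd8 in adenoma-type cells (edgeR). VApcMinL 2 had the highest Reg3b of the 4 libraries in the adenoma-type, crypt-type, enterocyte-type and villus-tip-type classes. Over the 40 pairs of member and class, 22 had the same direction in both kits and 18 did not. Tests of whether a class difference varied with the label called 0 members in each of the 4 class comparisons (edgeR), against 0% of all genes in adenoma-type against crypt-type and in enterocyte-type against crypt-type cells, 0.0207% at the villus tip and 0.0189% in secretory-type cells. Of these 32 tests of a member, 4 had an unadjusted p under 0.05 (edgeR). They were Reg3b and Reg3g in enterocyte-type against crypt-type cells, and Reg3b and Reg3a in secretory-type against crypt-type cells. The share of all genes under this unadjusted threshold is not given here, so the count has no background to be read against. The tests reuse the same members, and those against crypt-type cells share the crypt-type sums, so they are not independent. Kit and labelled group are crossed, but sex, as read from the Xist difference between the groups, cannot be told apart from the genotype here. The paper reports that both sexes were used in about equal numbers. In the kit 2 pair Lef1 in adenoma-type cells was higher in the library labelled VApcMinL, so Lef1 does not bear out the labels of that pair.

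**Figure D4:**
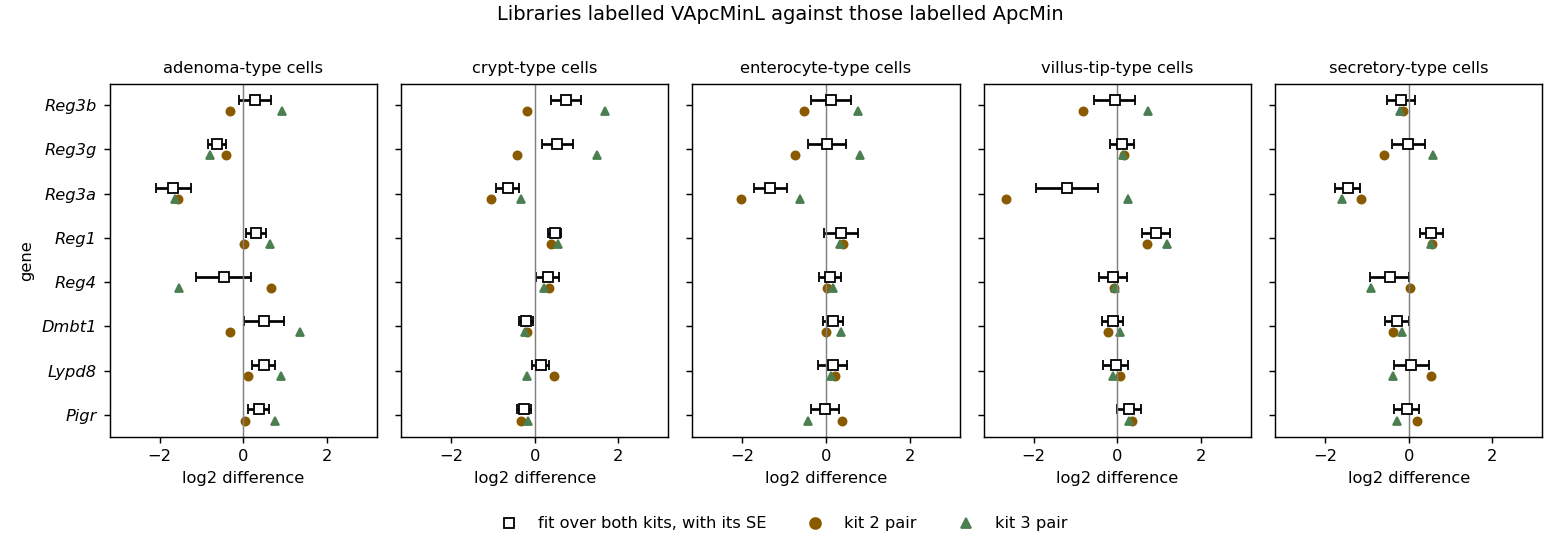
Log2 difference of the libraries labelled VApcMinL against those labelled ApcMin for each gene in 5 cell classes (open squares with SE, none with an adjusted p under 0.05), with the kit 2 pair (brown circles) and the kit 3 pair (green triangles). The squares of Reg3a lie to the left of 0 in all panels and those of Reg1 to the right. The kit 3 pair of Reg3a lies at 0.25 in villus-tip-type cells, and the kit 2 pair of Reg1 lies at 0.026 in adenoma-type cells. Reg3b and Reg3g have their kits on opposite sides of 0 in crypt-type and enterocyte-type cells.

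The chains known to induce these genes were measured in the same fits. Over all genes, 26.4% were called higher and 21.8% lower in adenoma-type against crypt-type cells, 35.5% and 35.5% in enterocyte-type against crypt-type cells, 25.3% and 23.7% at the villus tip and 22.2% and 22.2% in secretory-type cells, and the counts of each list are read against these shares. Of the interleukin-22 receptor and STAT3 chain, 4 of 8 tested genes were higher and 0 lower in adenoma-type than in crypt-type cells, with a median of 0.66 on the log2 scale against 0.05 for all genes. They were Il6ra at 2.93, Il6st at 1.75, the transcription factor Stat3 at 1.19 and the feedback inhibitor Socs3 at 1.16. From crypt-type to enterocyte-type cells 6 of 7 were higher and 0 lower, with a median of 0.73 against -0.00289, among them Jak2 at 1.74, Il10rb at 1.42 and Stat3 at 1.28. In villus-tip-type cells 6 of 8 were higher again and 0 lower, among them Jak2 at 1.19 and Socs3 at 0.86, where 6 members were lower. In secretory-type cells 4 of 7 were higher and 0 lower.

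The receptor subunit Il22ra1 itself was counted rarely. It was 4.96, 2.71, 7.21 and 5.96 CPM in villus-tip-type cells and 0.0830, 0.433, 0.744 and 0.818 in adenoma-type cells. Interleukin-22 transcripts came to 21, 0, 0 and 1 UMIs in T and NK cells and 25, 26, 0 and 10 UMIs in ungated cells of other types. No Il22 UMI was found in either class of ApcMin 2, which allows up to 17.6 CPM in its T and NK cells. Il17a came to 54, 0, 0 and 22 UMIs in T and NK cells. Il18, an epithelial cytokine, was 168, 173, 232 and 209 CPM in enterocyte-type cells against 9.30, 24.2, 20.1 and 13.9 in adenoma-type cells, and Il23a, a subunit of the interleukin-23 that drives interleukin-22 production, was 3.65, 4.68, 3.35 and 3.49 in adenoma-type against 0, 0.295, 0.515 and 1.19 in crypt-type cells.

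Toll-like receptor and NF-kB genes were called in both directions in adenoma-type against crypt-type cells, at shares close to those of all genes. Here 3 of 14 were higher and 3 lower, with a median of -0.11. Tlr1 was lower at -2.79 and Tlr2 higher at 1.28. In enterocyte-type cells 6 of 12 were higher and 2 lower, with a median of 0.34, among them the adaptor Ticam1 at 1.91 and the double-stranded RNA receptor Tlr3 at 1.69. In villus-tip-type cells 6 of 11 were higher and 1 lower. Secretory-type cells had 1 of 12 higher and 1 lower.

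Other inducible defence genes did not all follow the members. In adenoma-type cells 4 of 15 were higher and 7 lower than in crypt-type cells, with a median of -0.26. Lbp, which binds bacterial lipopolysaccharide, was higher at 4.95 and the fucosyltransferase Fut2 at 2.59, while the hydrogen peroxide producing oxidase Duox2, at -2.76, and its partner Duoxa2, at -2.52, were lower. At the villus tip 8 of 11 were higher and 0 lower than in other enterocyte-type cells, with Duox2 at 2.99 and Duoxa2 at 2.88, in the class where 6 members were lower. Enterocyte-type cells had 3 of 12 higher and 4 lower than crypt-type cells. Secretory-type cells had 5 of 13 higher and 0 lower, with the goblet cell lectins Zg16 at 8.77 and Itln1 at 7.01 and the resistin-like Retnlb at 8.26.

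Interferon-gamma and antigen presentation genes were 1 of 9 higher and 4 lower in adenoma-type than in crypt-type cells, with a median of -0.53. The receptor Ifngr1 was lower at -1.36 and the transcription factor Irf1 at -1.02. All 9 were higher in enterocyte-type than in crypt-type cells, with a median of 1.51, among them the class II gene H2-Ab1 at 2.03. In villus-tip-type cells 5 of 9 were higher and 0 lower, and in secretory-type cells 1 was higher and 1 lower. Reg2 and Reg3d, the other genes of the chromosome 6 cluster, did not pass the filter on low counts in any comparison. No gene of these lists was called between the labelled groups in any class (edgeR), where 29 to 304 of all genes had an unadjusted p under 0.05.

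Within a class, members were not independent from cell to cell. In crypt-type cells thinned to 2000 UMIs, 79.8, 80.4, 64.1 and 83.1% of Reg3b-positive cells were positive for Reg3g, against 39.8, 40.4, 30.4 and 31.5% of Reg3b-negative cells. Reg3g was thus found more often in Reg3b-positive than in Reg3b-negative cells in 4 of 4 libraries. Whether this has to do with their promoters was not tested. Lypd8 was found in 91.9, 95.1, 97.6 and 93.3% of Dmbt1-positive and 40.9, 57.1, 33.3 and 15.6% of Dmbt1-negative crypt-type cells, although these genes lie on different chromosomes. The Dmbt1-negative groups held 44, 21, 12 and 64 cells. In enterocyte-type cells Reg3b showed no such relation to Reg1, with 79.0, 80.4, 76.3 and 85.4% of Reg1-positive and 86.6, 70.2, 68.8 and 87.7% of Reg1-negative cells positive. Cells of a library share tissue and free RNA, and cells near the limits of a class may add to such co-occurrence, so these shares are descriptions.

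The genes whose levels followed each member most closely were ranked by Pearson's r of log2 levels over 20 sums, 5 classes in 4 libraries, among 5328 genes. The sums share libraries and depth, so r is a description. Reg3b was among the 5 closest genes of Reg3g, at r = 0.896. Reg1 was closest to Slc13a1 (r = 0.976), a sulfate transporter gene, and Arg2 (r = 0.965). Reg3a was closest to Rdh7 (r = 0.972) and Maob, and Reg3b to Fam98c (r = 0.969) and Cryl1. Dmbt1 was closest to Cps1 (r = 0.988), the urea cycle enzyme gene, and Bdh1 (r = 0.962). Lypd8 was closest to Cldn15 (r = 0.982), a tight junction claudin, and Isx, and Pigr to Vdr (r = 0.979), the vitamin D receptor, and Slc39a5. Reg4 was closest to Clps (r = 0.983), the colipase gene, and Ccl6. Among the members themselves, Reg1 and Reg3b had r = 0.939 and Pigr and Reg3b r = 0.939, whereas Reg4 had r between -0.300 and 0.112 with the others.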

How the data were processed

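Unsorted cells from small intestinal adenomas were measured in 4 libraries, 2 labelled ApcMin and 2 labelled VApcMinL. Per the labels, the authors used the 10x 3′ platform with kit version 2 or 3. The submitters' processing notes name Cell Ranger 2.1.1, Seurat 3.1.1 and the builds mm10 and GRCm38, and the headers of the kit 3 matrices name Cell Ranger 3.1.0. The deposited matrices hold raw UMI counts for every barcode, with no normalization and no cell filter. A 3′ count reflects transcript ends captured, and free RNA adds to every barcode.

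From these, barcodes with at least 2000 UMIs and at most 20% mitochondrial UMIs (the study's limit) were kept, over the 27514 genes in all tables. The authors' clustering and final cell numbers combined a further experiment not analysed here, so cells were assigned anew by marker sums per 10000 UMIs. Epithelial cells had at least 15 epithelial marker UMIs, goblet-type 100, Paneth-type 500, tuft-type 10 and enteroendocrine-type 20 of their own markers. Enterocyte-type cells had 200 enterocyte marker UMIs, and villus-tip-type cells also 100 villus-tip marker UMIs. Adenoma-type cells had 2 adenoma marker UMIs from 2 or more markers, crypt-type cells likewise 2 crypt marker UMIs with adenoma markers under 0.5, both with enterocyte markers under 100. Thresholds were set after seeing the marker sums, without the members. Within 25% of the lower limit lay 4.08% to 12.2% of adenoma-type and 7.04% to 16.0% of crypt-type, 3.46% to 7.22% of enterocyte-type and 17.4% to 25.6% of villus-tip-type cells. Doublets were scored per library at a rate of 0.8% per 1000 barcodes and kept, with their removal as an alternative.

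Counts were summed per library and class and tested with edgeR 4.0.16 (R 4.3.3, quasi-likelihood, TMM, minimum count 10, Benjamini-Hochberg over all genes, called under 0.05), with library as a block between classes and kit between groups. SEs were computed from the fold change and the F statistic. DESeq2 1.42.0 was an alternative. Nothing says that the 2 libraries of a group came from separate animals, so p-values measure the spread between these libraries, which may be technical. The pipeline was tested on simulated counts. Replicate numbers pair libraries of the same kit per the labels: the correlation of their deviations from the group means was 0.109 in adenoma-type, 0.534 in crypt-type, 0.445 in enterocyte-type, 0.369 in villus-tip-type and 0.334 in secretory-type cells. Levels are CPM (UMIs of a gene per 1000000 UMIs of the class), and shares are cells with a UMI after thinning to 2000 UMIs, with exact binomial 95% intervals that, like floors of 3 counts, cover counting error only. Promoters are RefSeq windows, available for 7 of the 8 members. Python 3.11.15 and Biopython 1.88 were used.

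The members and gene lists were chosen with earlier results of these data known. The rule for names was all members in every comparison and of each list, at most the 4 genes with the smallest adjusted p. Alternatives were DESeq2, no filter on low counts, no block, a mitochondrial limit of 10%, doublets removed, each library left out and, chosen after seeing the data, stricter gates and levels without the top cell.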

Additional observations from a re-analysis of the deposited data

Results flagged for a closer look

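Cells outside the 5 classes were not used in the comparisons, and some of them held the members above the level of T and NK cells in all 4 libraries. The first group is 1639 epithelial cells that met the gate of no class. Their mean levels over the libraries, in CPM, were 974 for Reg1, 28.0 for Reg3a, 2258 for Reg3b, 1234 for Reg3g, 1033 for Dmbt1, 1692 for Lypd8 and 636 for Pigr. These means lie between those of adenoma-type and enterocyte-type cells for every one of these genes except Dmbt1, which was above both. Reg3b in these cells reached 4222 in ApcMin 2, against 1079.6 to 2145 in the other libraries.

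The second group is 1669 cells that were neither epithelial nor T and NK cells by their markers. Their mean levels were 141 for Reg1, 11.9 for Reg3a, 83.1 for Dmbt1, 254.0 for Lypd8 and 124 for Pigr, against ranges in T and NK cells of 40.5 to 87.8, 0 to 13.6, 10.2 to 33.1, 54.5 to 106 and 27.7 to 64.4. Reg3b in these cells was 66.0 to 1373 and not above T and NK cells in every library. Near-empty barcodes of at most 100 UMIs held more of each of these genes than this second group did, with means of 816 for Reg1 and 815 for Lypd8. The part of free RNA and of doublets in these values was not tested.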

How the results depend on the processing

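Between adenoma-type and crypt-type cells 7 members, and between enterocyte-type and crypt-type cells 7 members, kept their direction and their call under all 10 alternatives to the fit. Of the villus-tip calls, those of Reg3a (-1.14, edgeR adjusted p = 0.138) and Reg3b (-0.59, 0.126) were lost with no replicate block, that is, with kit in place of library. That of Lypd8 was lost with a mitochondrial limit of 10%, with stricter gates (-0.49, edgeR adjusted p = 0.0549), without ApcMin 1 (-0.42, 0.133) and without VApcMinL 1 (-0.34, 0.114). In secretory-type against crypt-type cells the members called numbered 2 with no replicate block and 2 to 5 when 1 library was left out, and Reg1 turned to 0.060 (edgeR adjusted p = 0.758) with stricter gates. For VApcMinL against ApcMin, genes called in adenoma-type, crypt-type, enterocyte-type, villus-tip-type and secretory-type cells were 3, 0, 4, 2 and 21 with DESeq2. In the last 4 of these classes they were 74, 84, 43 and 82 without the filter on low counts, with 1 member each in crypt-type, enterocyte-type and secretory-type cells, and 0 in each with no replicate block. Without doublets they were 3 in crypt-type, 11 in enterocyte-type and 9 in secretory-type cells, with stricter gates 4 in crypt-type cells, and with a limit of 10% 14 in villus-tip-type cells, with 1 member. Leaving out a library in this comparison leaves 1 pair with no test, so all 4 were kept. Dropping the block changed no other call of a member. Causes were not tested. Of 40 mean levels by member and class, 8 moved by over 1 SD with the limit of 10%, and 38 of 40 shares did without thinning. T and NK cells came to 170752 to 432608 UMIs per library, so a count of 0 there allows 6.93 to 17.6 CPM.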
